A study of Mus musculus with 21 samples.

Results

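The apelin receptor gene Aplnr was 11.3-fold lower in hearts of mice given doxorubicin (DOX) than in control hearts, whereas genes that mark endothelial cells as such (Pecam1, Cdh5, Emcn, Vwf) did not pass the test in that comparison. Of the latter, Pecam1 passed in 2 of the 21 fits that left out a library. Vwf levels scaled by library totals did not overlap between the groups. Of 20 other pan-endothelial genes 5 were higher and 6 lower, where 18.0% and 18.2% of all genes were. Among 10 genes of endothelial identity and angiogenic signalling, Aplnr, the ligand gene Vegfa and the receptor gene Tie1 were called lower with DOX in mice without a tumor, and the receptor gene Flt1 higher. Thus 4 of 10 were called where 36.2% of all genes tested were. In tumor-bearing mice none of the 10 passed the test for DOX, where 4.72% of all genes did, and both counts are near the share over all genes. The call of Vegfa was lost in 5 of the 21 fits that left out a library. That of Flt1 was lost when libraries were scaled by their totals. The genes were fixed by name: Pecam1, Cdh5, Emcn and Vwf as identity genes, Kdr and Flt1 as vascular endothelial growth factor (VEGF) receptors, Tie1 and Tek as TIE receptors, Aplnr, and Vegfa as a ligand. They are 10 of the 56691 genes in the deposited table, and all 10 passed the filter on low values with their mean over all 21 libraries.

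The libraries are mRNA of mouse hearts in 4 groups, with 5 Control, 5 DOX, 6 tumor-bearing (Tb) and 5 tumor-bearing DOX-treated (Tb-DOX) libraries. DOX, an anthracycline used against cancer that damages the heart, was injected into the peritoneum at 5 mg/kg weekly for 3 doses, and the mice of the Control and Tb groups received saline. Tumors were grown under the skin from 4T1, a mouse breast cancer line, so the tumor was at a distance from the heart and came from 1 line. Strain, sex and age are not given in the sources used here, and nothing says whether a library was 1 animal, so p-values measure the spread between these libraries.

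Endothelial cells line all vessels of the heart, and most of them belong to capillaries. VEGF-A, made largely by neighbouring cells such as cardiomyocytes, signals through KDR, while FLT1 binds it tightly and limits its supply to KDR. Angiopoietins act on TEK, with TIE1 as its partner receptor, and keep vessels quiescent. Apelin acts on its receptor APLNR, which is found on venous and growing capillary endothelium.

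The submitters' labels give 4T-1 as the source of every library, so the tissue was checked by marker genes. Summed FPKM (reads per kb of exon, scaled to the total of each library) of 8 cardiomyocyte genes, Myh6 the most abundant, lay between 13000 and 20700 in each library, and that of 5 epithelial and carcinoma genes (Krt18 the most abundant) was at most 3.06. Total counts ranged from 13521200 to 18601445 per library. Blood cell markers differed strongly between groups. Neutrophil markers summed to 1.65 to 4.83 FPKM in Control, 8.43 to 83.9 in DOX, 769 to 7210 in Tb and 1170 to 5640 in Tb-DOX, and erythroid markers to 252 to 1090, 4.77 to 146, 527 to 975 and 2.96 to 40. Among the 6 Tb libraries, replicate 5 was the lowest for Aplnr, Vegfa, Kdr, Flt1, Tie1 and Tek and the highest for Pecam1 and Cdh5, and its 4 leukocyte adhesion genes summed to 79 FPKM against 6.54 to 14.9 in the other 5. DOX replicate 4 had 67.3 FPKM of T cell markers, Cd3e the most abundant, against 1 to 3.82 in the other DOX libraries. DOX replicate 5 was the lowest DOX library for Pecam1, Cdh5, Emcn, Flt1, Tie1 and Tek and the highest for Kdr and Aplnr. Where a test result printed here crosses the threshold without Tb replicate 5 or DOX replicate 4, the value without it is given beside it, and for the 10 genes also without DOX replicate 5.

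Flt1 was called higher and Tie1 lower with DOX, although the call of Flt1 was lost when libraries were scaled by their totals. The 250 bases upstream of the start sites of both genes are shown for comparison. They are RefSeq promoter windows on GRCm38.p6, available for 6 of the 10 genes, both on the minus strand and written 5′ to 3′, at chr5:147726012-147726261 for Flt1 and chr4:118489850-118490099 for Tie1. Capitals mark GGAA, the core that ETS-family factors of endothelial cells recognise, or its complement TTCC.
Flt1: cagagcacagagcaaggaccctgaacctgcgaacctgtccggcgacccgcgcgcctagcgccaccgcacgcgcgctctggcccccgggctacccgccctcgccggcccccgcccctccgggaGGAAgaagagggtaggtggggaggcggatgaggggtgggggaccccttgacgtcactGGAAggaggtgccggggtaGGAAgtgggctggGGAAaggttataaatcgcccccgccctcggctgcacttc
Tie1: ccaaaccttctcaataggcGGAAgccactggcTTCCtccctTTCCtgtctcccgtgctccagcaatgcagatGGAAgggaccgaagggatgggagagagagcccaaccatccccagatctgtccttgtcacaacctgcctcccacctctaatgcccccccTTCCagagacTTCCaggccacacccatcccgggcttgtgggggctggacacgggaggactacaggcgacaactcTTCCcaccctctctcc
The core occurs 4 times in the Flt1 window and 7 times in the Tie1 window, compared with 4 times in each of Kdr and Emcn, 2 times in Tek, and 2 and 6 times in the 2 windows of Vegfa. Those of Vegfa are at chr17:46025164-46025413 and chr17:46032378-46032627. The gene is on the minus strand, so the former lies downstream of the latter. GGAA on either strand is common, being present in 93.4% of 32851 promoter windows of the same length, so its presence marks out none of these genes. The Flt1 window also holds a TATAAA, which 12.4% of all windows do, and GGGCGG on 3 positions, which 32.7% hold at least 1 time. The Tie1 window holds neither. These matches are letters in a window and were not tested as binding sites.

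In Control hearts Vegfa had the highest level of the 10 genes, at 100 ± 5.32 FPKM (SD, n = 5). It was followed by Cdh5 (35.6 ± 7.85), Pecam1 (30.1 ± 3.24), Kdr (18.5 ± 3.71), Tek (17.9 ± 1.96), Tie1 (16.6 ± 2.53), Flt1 (15.6 ± 2.54), Emcn (10.5 ± 1.13), Aplnr (6.55 ± 3.06) and Vwf (3.88 ± 0.28). Cdh5 and Pecam1 did not differ beyond their spread, and neither did Kdr, Tek, Tie1 and Flt1. Aplnr was the most variable gene within groups, with an SD of 46.8% of its mean in Control and 72.4% in Tb.

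**Figure D1:**
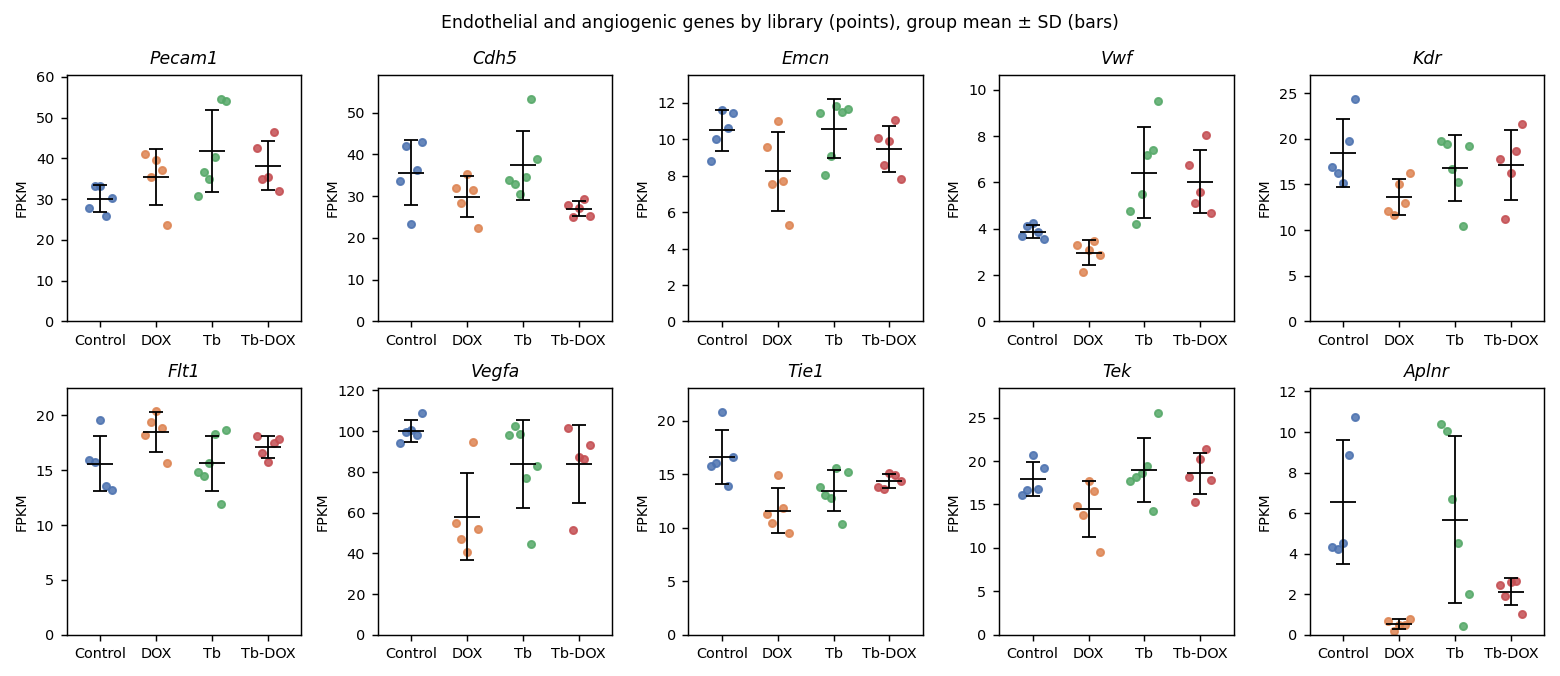
FPKM (vertical axes, from 0) of the 10 genes in each of the 21 libraries, with the mean and SD of each group as bars. Aplnr in DOX lies between 0.2 and 0.79, below every Control library, while Pecam1, Cdh5, Emcn, Kdr, Flt1 and Tek overlap between Control and DOX.

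The comparison of DOX with Control asks how the drug alone changed these genes. With edgeR's quasi-likelihood test and Benjamini-Hochberg adjustment over the 13990 genes tested, 4 of the 10 passed an adjusted p of 0.05, 1 higher and 3 lower. Of all genes tested, 36.2% passed, 18.0% higher and 18.2% lower, so the count of 4 is close to the background. The median log2 fold change of the 10 genes was -0.23, and that of all genes was 0. The median absolute log2 change was 0.34 for the 10 genes and 0.35 for all. The groups did not overlap in FPKM for 2 of the 10 (Aplnr and Vwf), as for 25.2% of all genes. When libraries were scaled by their totals in place of the trimmed mean of M-values (TMM), the median of all genes moved to -0.14, and the calls split into 1419 higher and 3532 lower in place of 2523 and 2548.

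Aplnr, on chr2:84966569-84970267 (GRCm39, as are the other gene positions), had 4.31, 4.24, 4.54, 8.89 and 10.75 FPKM in Control. In DOX it had 0.69, 0.2, 0.49, 0.46 and 0.79 FPKM, from 11 to 42 reads per library. Every DOX library was thus below every Control library. The log2 fold change was -3.50 ± 0.594 (SE), with an adjusted p of 0.000157 by edgeR and an exact permutation p of 0.00794, which is the smallest that 5 against 5 libraries allow. Its value stayed between -3.68 and -3.24 when each of the 21 libraries was left out. Apln, which encodes the ligand apelin, was 1.84 to 4.33 FPKM in Control and 0.22 to 0.42 in DOX, without overlap. Ligand and receptor transcripts therefore fell together, Apln by 3.03 on the log2 scale (SE 0.416, adjusted p by edgeR 2.23e-05). Apela, which encodes the second ligand, was below the filter and was not tested.

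The summed level of other pan-endothelial genes overlapped between DOX and Control, although genes within that sum moved in both directions. Of the 20 genes 5 were higher and 6 lower, beside 18.0% and 18.2% of all genes, Cd34 among them by -1.43 on the log2 scale. The sum over the 20 genes in FPKM was 460 ± 18.3 (SD, n = 5) in Control and 427 ± 66.5 in DOX, from 433 to 480 and from 321 to 490. Ly6c1, the most abundant of the 20, was itself called higher, at 84.1 ± 9.39 in Control and 114 ± 29.6 in DOX. The sum and values relative to it therefore include a gene that rose. The lowest DOX sum was that of replicate 5, and the other 4 lay between 412 and 490. Relative to that sum, an alternative chosen after seeing the data, Aplnr was lower by 3.26 on the log2 scale (exact permutation p 0.00794, unadjusted, as are the next values). On that scale Tie1 was lower by 0.40 and the identity gene Pecam1 higher by 0.33, each without overlap between the groups (exact permutation p 0.00794). Flt1 (0.37), Vegfa (-0.73) and Emcn (-0.26) had exact permutation p of 0.0159, 0.0317 and 0.0476, and Cdh5, Vwf, Kdr and Tek had p of 0.0635 or more. In bulk tissue, fewer cells of a type and less RNA per cell cannot be told apart.

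Marker genes of other cell types moved in the same comparison, where 18.0% of all genes were higher and 18.2% lower. Of the 6 macrophage markers, led in abundance by C1qa, 5 were lower in DOX, and their sum was 46.9 to 66.5 FPKM in Control and 18.7 to 38.4 in DOX. Of the 7 fibroblast markers, led by Dcn, 4 were lower and 1 higher (2 higher without Tb replicate 5, median log2 change -1.39), with sums of 265 to 320 and 165 to 256 FPKM. Of the 8 cardiomyocyte markers 4 were higher and none lower, 3 without DOX replicate 4, with sums of 14300 to 20700 and 17400 to 20300 FPKM. All 5 erythroid markers (led by Hbb-bs) were lower and 4 of 5 neutrophil markers (led by S100a9) higher. Among 8 pericyte markers, led by Rgs5, 1 was higher and 1 lower (2 and 1 without Tb replicate 5), and among 5 smooth muscle markers, led by Acta2, 1 was lower. Adipocyte markers, led by Cfd, summed to at most 0.93 FPKM in any library. In Tb-DOX against Tb, where 2.18% of all genes were higher and 2.54% lower, 3 of the 8 cardiomyocyte markers and 2 of the 8 pericyte markers were higher, and 3 of the 7 fibroblast markers (4 without DOX replicate 4 or without Tb replicate 5), 2 of the 6 macrophage markers and all 5 erythroid markers were lower. The part of these cells in the results for Aplnr and the other genes was not tested.

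**Figure D2:**
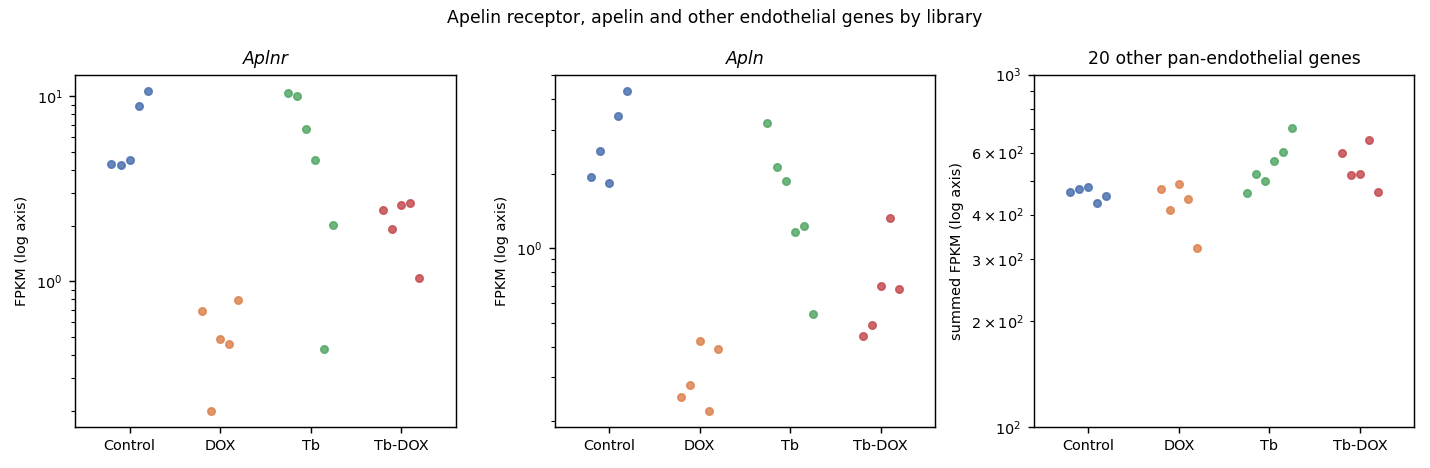
FPKM on log axes of Aplnr, of Apln and of the sum of 20 other pan-endothelial genes, 1 point per library. DOX libraries lie below all Control libraries for Aplnr and Apln, whereas for the pan-endothelial sum the Control range of 433 to 480 lies within the DOX range of 321 to 490. In Tb, Aplnr spans 0.43 to 10.39.

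Vegfa, on chr17:46327919-46343295, had 94.23, 99.61, 100.43, 97.93 and 108.69 FPKM in Control. In DOX it had 54.83, 47.26, 40.86, 94.79 and 52.04. Of the 5 DOX libraries 4 were far below the Control range, and replicate 4 lay inside it. The log2 fold change was -0.64 ± 0.221 (adjusted p 0.0282 by edgeR; exact permutation p 0.0159). Without DOX replicate 4 it was -0.91, with an adjusted p of 0.00164 by edgeR, whereas the call was lost when any other DOX library or Control replicate 5 was left out, the highest adjusted p being 0.0902 without DOX replicate 3 (0.0596 without DOX replicate 5).

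Flt1, on chr5:147498414-147662821, was the only one of the 10 that passed the test as higher. It had 15.9, 15.78, 19.58, 13.53 and 13.24 FPKM in Control, and 18.18, 19.42, 20.42, 18.85 and 15.64 in DOX. All DOX libraries were above the Control mean of 15.6, but the groups overlapped, and the exact permutation p on FPKM was 0.103. The log2 fold change was 0.39 ± 0.096 with an adjusted p of 0.00354 by edgeR, and 0.25 with an adjusted p of 0.11 under scaling by library totals, by which FPKM is also scaled. Counts per gene do not separate the membrane receptor from the soluble form that the same gene encodes. Kdr, the signalling receptor of VEGF-A on the same chromosome (chr5:76093487-76139118), was 15.12 to 24.33 FPKM in Control and 11.63 to 16.23 in DOX, a log2 change of -0.31 ± 0.169 that did not pass (adjusted p 0.155 by edgeR). All 5 DOX libraries were below the Control mean of Kdr (exact permutation p on FPKM 0.0238), and without Control replicate 5 the log2 change was -0.189.

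Tie1, on chr4:118328388-118347258, had 15.8, 16.04, 20.8, 13.94 and 16.59 FPKM in Control. In DOX it had 11.33, 10.4, 14.95, 11.87 and 9.47. DOX replicate 3 was above the lowest Control library, and the other 4 were below all of them. The log2 fold change was -0.38 ± 0.096 (adjusted p 0.00396 by edgeR; exact permutation p 0.0159), and the call held in all 21 fits that left out a library. Its partner receptor Tek (chr4:94627526-94763213) was 16.14 to 20.7 FPKM in Control and 9.5 to 17.75 in DOX, with a log2 change of -0.17 ± 0.123 and an adjusted p of 0.303 by edgeR, and -0.043 without DOX replicate 5.

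None of the 4 identity genes passed. Pecam1, which encodes the junction protein CD31 (chr11:106545043-106641454), was 25.9 to 33.3 FPKM in Control and 23.75 to 40.99 in DOX, with a log2 change of 0.37 ± 0.154 and an adjusted p of 0.0639 by edgeR. Of its 5 DOX libraries 4 were above the Control range and replicate 5 was below it. Without that library the log2 change was 0.49 and the adjusted p 0.0116 by edgeR, and without Tb replicate 5, which enters the shared estimate of the spread, the adjusted p was 0.021. Cdh5, which encodes VE-cadherin (chr8:104828257-104871143), changed by -0.13 (95% interval -0.47 to 0.21), and Emcn, which encodes the capillary and venous sialomucin endomucin (chr3:137046828-137137946), by -0.22 (-0.49 to 0.06). Without DOX replicate 5 these changes were -0.037 and -0.09, and neither passed in any of the 21 fits that left out a library.

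Vwf, the gene of von Willebrand factor, which platelets bind to (chr6:125523737-125663642), was 3.57 to 4.23 FPKM in Control and 2.13 to 3.49 in DOX. These FPKM ranges did not overlap (exact permutation p 0.00794), but with TMM scaling the log2 change was -0.25 ± 0.172 and did not pass (adjusted p 0.273 by edgeR). Megakaryocytes also transcribe Vwf, and platelet and megakaryocyte markers, led by Pf4, summed to 4.43 to 10.3 FPKM in Control and 2.05 to 3.49 in DOX. Of these 6 markers 3 were tested. With all 21 libraries in the fit 2 were lower and 1 was higher, beside 18.2% and 18.0% of all genes. The part of these cells in the values of Vwf was not tested.

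**Figure D3:**
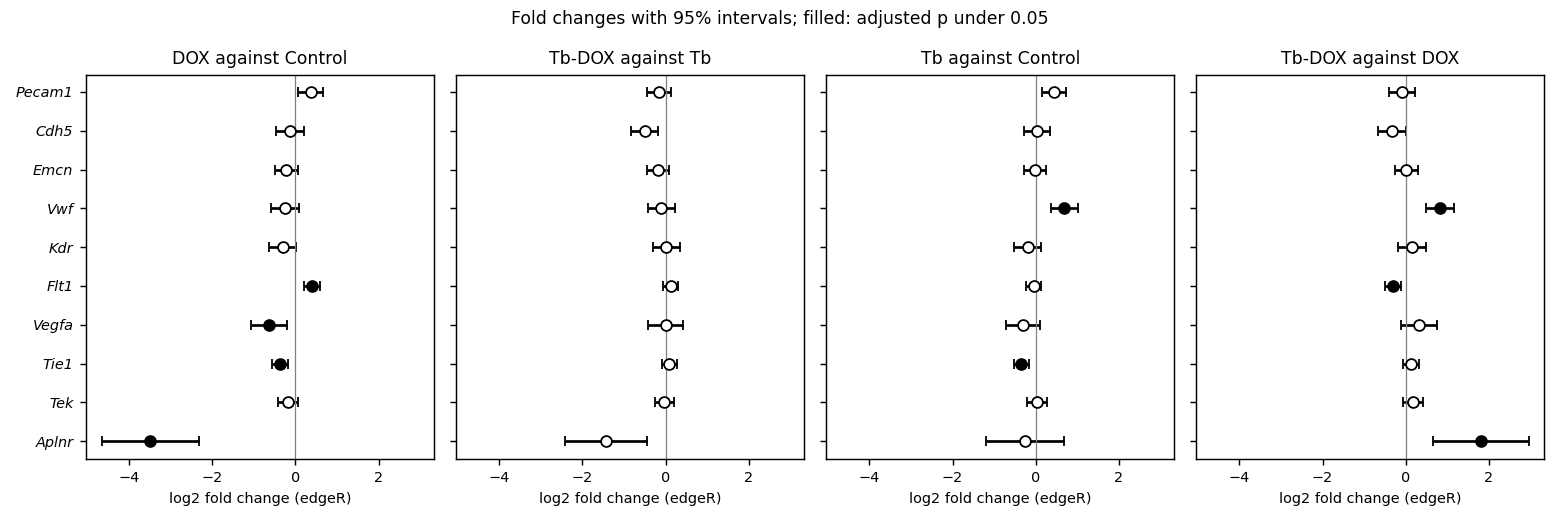
Log2 fold changes from edgeR (horizontal axis) with 95% intervals for the 10 genes in the 4 comparisons, filled where the adjusted p was under 0.05. Aplnr at -3.50 in DOX against Control is the farthest from 0, and no point is filled for Tb-DOX against Tb.

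The comparison of Tb-DOX with Tb asks the same of tumor-bearing mice. By edgeR none of the 10 genes passed, beside 4.72% of all genes tested (2.18% higher and 2.54% lower), and 2 of them, Aplnr and Cdh5, had an unadjusted p under 0.05 (0.0101 and 0.00703). DESeq2 on the same counts also called 0 of the 10. The median log2 fold change was -0.07 over the 10 genes and -0.02 over all.

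Aplnr in Tb had a lowest level of 0.43, a median of 5.6 and a highest of 10.39 FPKM. In Tb-DOX it had 2.44, 1.93, 2.58, 2.65 and 1.04. All Tb-DOX libraries were below the Tb mean of 5.68, but Tb replicates 5 (0.43) and 6 (2.01) reached into or below their range. The log2 fold change was -1.43 ± 0.509 with an adjusted p of 0.108 by edgeR. Without Tb replicate 5 it was -1.67 with an adjusted p of 0.0135. Apln was 0.54 to 3.21 FPKM in Tb and 0.44 to 1.32 in Tb-DOX, with a log2 change of -1.26 and an adjusted p of 0.0519 by edgeR. Without Tb replicate 5 that change was -1.31 with an adjusted p of 0.0428, and with median-ratio size factors the adjusted p was 0.0497.

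Cdh5 in Tb ranged from 30.47 over a median of 34.2 to 53.22 FPKM, and in Tb-DOX it had 27.95, 25.05, 27.29, 29.34 and 25.38. The groups did not overlap, as for 4.30% of all genes tested. The log2 fold change was -0.49 ± 0.166 with an adjusted p of 0.0895 by edgeR and an exact permutation p of 0.00433. Without Tb replicate 5, the highest library, it was -0.32 with an adjusted p of 0.171 by edgeR, and without Control replicate 3, which enters the shared spread, -0.49 with an adjusted p of 0.045. The other 8 genes had log2 changes between -0.18 and 0.13. The 95% interval was -0.41 to 0.41 for Vegfa and -0.09 to 0.27 for Tie1.

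Whether the effect of DOX differed between mice with and without a tumor was tested by the interaction term, for which 1 of the 10 genes passed and 8.94% of all genes did (3.95% positive and 5.0% negative). Tie1 had a log2 difference of 0.47 ± 0.133 (adjusted p 0.032 by edgeR), from -0.38 without a tumor and 0.09 with one. Its call was lost in 6 of the 21 fits that left out a library and with no filter on low values (adjusted p 0.0818). Apln, outside the 10 genes, also passed, with a log2 difference of 1.76 (adjusted p 0.0469 by edgeR), and lost the call without DOX replicate 4 (0.0803) or Tb replicate 5 (0.0576). For its receptor Aplnr the difference was 2.06 ± 0.758 with an adjusted p of 0.0817, and for Vegfa 0.64 ± 0.304 with an adjusted p of 0.171, both by edgeR. Without DOX replicate 4 the value for Vegfa was 0.90 with an adjusted p of 0.0475, without Tb replicate 1 that for Aplnr was 2.34 with an adjusted p of 0.0468, and without DOX replicate 5 that for Pecam1 went from -0.52 to -0.65 with an adjusted p of 0.0374. Under scaling by library totals the interaction's calls split into 906 positive and 279 negative in place of 552 and 699, with the median of all genes at 0.14.

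The effect of the tumor was compared in mice given saline (Tb against Control) and in mice given DOX (Tb-DOX against DOX). By edgeR, 2 of the 10 genes passed in the former, 1 higher and 1 lower, beside 6.28% of all genes (5.0% higher and 1.29% lower). In the latter 3 passed, 2 higher and 1 lower, beside 17.5% of all genes (9.52% higher and 7.93% lower), and scaling by library totals gave 2535 genes higher and 323 lower in place of 1332 and 1110, with the median of all genes at 0.18.

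Vwf was higher with the tumor in both comparisons. It had 3.67, 4.1, 4.23, 3.84 and 3.57 FPKM in Control, while Tb ranged from 4.2 over a median of 6.35 to 9.5. The ranges met at 1 library of each group. In DOX it had 3.29, 2.13, 3.09, 3.49 and 2.85, against 6.74, 5.12, 5.6, 8.05 and 4.68 in Tb-DOX, with no overlap. The log2 changes were 0.68 ± 0.165 (adjusted p 0.0131) and 0.82 ± 0.172 (adjusted p 0.0023) by edgeR. Groups without overlap were 5.73% of all genes for Tb against Control, where none of the 10 was among them, and 15.8% for Tb-DOX against DOX, where Vwf and Aplnr were. Platelet and megakaryocyte markers summed to 6.59 to 21.7 FPKM in Tb and 3.28 to 10.2 in Tb-DOX, and neutrophil markers were higher in tumor-bearing mice, as given above. Macrophage markers summed to 18.7 to 38.4 FPKM in DOX and 32.1 to 76.2 in Tb-DOX, and fibroblast markers to 165 to 256 and 164 to 241. The part of these cells in the rise of Vwf and in the other tumor comparisons was not tested.

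Tie1 was lower in Tb than in Control, with a lowest level of 10.37, a median of 13.4 and a highest of 15.6 FPKM. The log2 change was -0.35 ± 0.091 (adjusted p 0.0241 by edgeR), and the call was lost without Tb replicate 5 (adjusted p 0.0568), without Tb replicate 3 (0.0528) and without Control replicate 3 (0.0847). Pecam1 reached a median of 38.5 and a highest level of 54.55 FPKM in Tb, with a log2 change of 0.44 and an adjusted p of 0.087 by edgeR. All 6 Tb libraries were above the Control mean of Pecam1 (exact permutation p 0.0238), and the gene passed without Tb replicate 1 (0.51, adjusted p 0.0332) and without DOX replicate 5 (0.44, adjusted p 0.0487) but was at 0.31 without Tb replicate 5 (adjusted p 0.221). Aplnr did not pass between Tb and Control (log2 change -0.25, 95% interval -1.20 to 0.69) and was higher in Tb-DOX than in DOX by 1.81 ± 0.587 (adjusted p 0.0368 by edgeR), with every Tb-DOX library above every DOX library. Flt1 was lower in Tb-DOX than in DOX by edgeR, with a log2 change of -0.30 ± 0.096 (adjusted p 0.0362), but FPKM overlapped (exact permutation p 0.183) and under library totals the change was -0.11. Each of the latter 2 calls was lost in 7 of the 21 fits that left out a library, Aplnr's adjusted p being at most 0.0827 (without DOX replicate 2) and Flt1's at most 0.0922 (without Tb-DOX replicate 4). Without DOX replicate 4 they were 0.0738 and 0.0892, and Vegfa passed as higher (log2 change 0.60, adjusted p 0.0428 by edgeR).

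Relative to the sum of 20 pan-endothelial genes, which was 462 to 703 FPKM in Tb and 463 to 653 in Tb-DOX, the tumor comparisons gave other values (exact permutation p, unadjusted). The mean sum was itself higher with the tumor, at 460 in Control and 559 in Tb, and at 427 in DOX and 550 in Tb-DOX. That difference enters the values below. In Tb-DOX against DOX, Flt1 was at -0.48, Cdh5 at -0.50, Pecam1 at -0.25 and Vwf at 0.62, each without overlap (p 0.00794), and Aplnr at 1.49 with overlap (p 0.0159). By edgeR Pecam1 was at -0.08 there, and its FPKM overlapped. In Tb against Control, Tie1 was at -0.57 without overlap (p 0.00433), and Vwf at 0.39 (p 0.0173) and Vegfa at -0.58 (p 0.0476) with overlap. In Tb-DOX against Tb, Cdh5 at -0.42 alone of the 10 had no overlap (p 0.00433), and the other 9 had p of 0.264 or more.

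The 10 genes did not vary as a block among libraries of a group. After subtracting group means, Pearson's r of log2 expression over the 21 libraries was 0.68 between Tie1 and Tek, 0.65 between Pecam1 and Vwf, 0.62 between Pecam1 and Cdh5 and 0.59 between Kdr and Vegfa. It was -0.67 between Pecam1 and Aplnr and -0.51 between Pecam1 and Kdr. The genes most like the mean of the 9 endothelial genes were Flt4 (r 0.83), Bbc3 (0.81), H2-T23 (0.79), Trim44 (0.78) and Mroh1 (0.77), and those most like Vegfa were Frmd5 (0.92), Srrm4 (0.83), Gm15816 (0.82), Pfkfb2 (0.82) and Clic3 (0.80). These values share the same libraries and depth and are a description. They include Tb replicate 5, which stood apart for several of the genes, among them Pecam1, Cdh5 and Aplnr.

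Other ligands and receptors of the same pathways were read from lists. The counts below stand beside 18.0% of all genes higher and 18.2% lower in DOX against Control, and 2.18% and 2.54% in Tb-DOX against Tb, and no list was tested as a group. Of 7 other VEGF ligand and receptor genes, 3 fell with DOX in mice without a tumor and none rose, with a list median of -0.20, and without Tb replicate 5 the placental growth factor gene Pgf passed as higher (0.57, adjusted p 0.0201). The ligand gene Vegfd went from 1.2 to 1.78 FPKM in Control to 0.42 to 0.71 in DOX, a log2 change of -1.20 (adjusted p 0.000668 by edgeR). Vegfc (-0.91, adjusted p 0.0014) and the co-receptor gene Nrp2 (-1.02, adjusted p 2.16e-05) fell with it by edgeR. Vegfb, the most abundant of them, had a log2 change of -0.20 with an adjusted p of 0.268, and -0.36 with an adjusted p of 0.0414 under library totals. None of the 7 passed in Tb-DOX against Tb, and the interaction passed for Vegfc (1.24, adjusted p 0.0146) and Nrp2 (0.82, adjusted p 0.0174).

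Of the 4 angiopoietin-TIE genes tested, none passed with DOX alone, although Svep1, at -0.46 (adjusted p 0.111), passed as lower without DOX replicate 4 (-0.60, adjusted p 0.0498) and under library totals (-0.58, adjusted p 0.0486). In tumor-bearing mice 2 were lower, namely Ptprb, which encodes a phosphatase that acts on TEK (17.46 to 26.17 FPKM in Tb, 14.07 to 18.97 in Tb-DOX, log2 change -0.46, adjusted p 0.0292), and Svep1, which encodes an extracellular protein that binds TIE1 (log2 change -0.82, adjusted p 0.0325 by edgeR). The angiopoietin genes Angpt1 and Angpt2 did not pass in either comparison.

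Of the 7 tip cell and sprouting genes tested, 4 were lower in DOX than in Control and none higher (list median -0.47), beside 18.2% of all genes lower: Apln, Esm1 (-2.33, adjusted p 0.00226), the chemokine receptor gene Cxcr4 (-1.44, adjusted p 0.000165) and the basement membrane gene Nid2 (-0.47, adjusted p 0.0431, and 0.0835 without DOX replicate 4). Adm, which encodes the vasodilator peptide adrenomedullin, passed as higher without Tb replicate 5 (0.51, adjusted p 0.018). Pdgfb, the most abundant of the 7, was at 0.05 (adjusted p 0.855). None of the 7 passed in Tb-DOX against Tb, where the list median was -0.45, and Apln did without Tb replicate 5, as given above. Arterial genes had 4 lower and 1 higher of 8 (median -0.43), with Stmn2 at -1.26 (adjusted p 0.001) and the ephrin gene Efnb2 at -0.50 (adjusted p 0.000393), 3 lower and 0 higher without DOX replicate 4, and 5 lower and 1 higher without Tb replicate 5. Sema3g, the most abundant of the 8, was at 0.39 (adjusted p 0.118), and none of the 8 passed in tumor-bearing mice.

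Other pan-endothelial genes moved in both directions, 5 higher and 6 lower of 20 with DOX alone (median -0.11), 3 and 7 under library totals, 3 and 6 without DOX replicate 4, and 5 and 7 without Tb replicate 5. The progenitor and capillary antigen gene Cd34 fell by 1.43 on the log2 scale, from 17.49 to 21.91 FPKM in Control to 5.32 to 8.13 in DOX (adjusted p 1.29e-07 by edgeR). In tumor-bearing mice its log2 change was -0.42 (adjusted p 0.0297, and 0.0729 under library totals), and the interaction passed at 1.02 (adjusted p 0.00625). Ly6c1, the most abundant gene of that list, rose by 0.57 (adjusted p 0.0051). In Tb-DOX against Tb the lectin-like receptor gene Clec14a was the other of 2 that fell, from 8.92 to 14.58 FPKM to 4.39 to 11.16 (log2 change -0.59, adjusted p 0.0407, and 0.0817 under library totals), while with DOX alone it was at -0.02 (adjusted p 0.955). Adgrf5 also passed there, as higher, without Tb replicate 5 (0.52, adjusted p 0.0108). Among 9 cardiac capillary genes 2 fell, the fatty acid binding protein gene Fabp4 (-0.60, adjusted p 0.000819) and the transcription factor gene Meox2 (-1.0, adjusted p 0.000149), and Fabp4 was also lower in Tb-DOX than in Tb (-0.54, adjusted p 0.0132). Cd36, the fatty acid transporter gene and the most abundant of the 9, was at 0.05 (adjusted p 0.72) with DOX alone and -0.06 (adjusted p 0.766) in tumor-bearing mice. Among 14 endothelial transcription factor genes 2 rose, Gata2 (1.25, adjusted p 0.000181) and Foxo1 (0.36, adjusted p 0.0225, and 0.0649 without DOX replicate 4), and 2 fell, Ets1 and Lmo2. Klf2, a flow-responsive factor gene and the most abundant of the 14, was at -0.60 (adjusted p 0.0998), and none of the 14 passed in tumor-bearing mice.

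Of 10 Notch genes 2 rose and 3 fell with DOX alone, the receptor gene Notch4 by 0.95 on the log2 scale (adjusted p 6.87e-05), while the target genes Hes1 (1.02, adjusted p 0.0134) and Hey2 (0.73, adjusted p 0.00172) were higher, and without Tb replicate 5 Hey1 passed as lower (-0.37, adjusted p 0.0444). In Tb-DOX against Tb Hey2 alone passed (0.55, adjusted p 0.0467), whereas without Tb replicate 5 its adjusted p was 0.0625 and Hey1 passed as lower (-0.51, adjusted p 0.043). Of 7 BMP and endoglin receptor genes 1 rose (Bmpr2, 0.50, adjusted p 0.0207) and 1 fell (Acvrl1), while Id1, the most abundant, was at -0.15 (adjusted p 0.577). The calls of Hes1 and Bmpr2 were lost without DOX replicate 4 (adjusted p 0.0653 and 0.0529). Of 7 venous and endocardial genes Ephb4 alone rose (0.32, adjusted p 0.0391), a call lost without DOX replicate 4 (adjusted p 0.112) and under library totals (adjusted p 0.351). Npr3, the natriuretic peptide clearance receptor gene, passed as higher too without Tb replicate 5 (0.42, adjusted p 0.0359).

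Lymphatic genes had 1 higher and 2 lower of 6 with DOX alone. The higher one, the lymphatic transcription factor gene Prox1 (0.56, adjusted p 0.0284), which cardiomyocytes also express, lost its call without DOX replicate 4 (adjusted p 0.111) and under library totals (adjusted p 0.114). Ccl21a, a chemokine of lymphatic endothelium, had 23.84 to 38.79 FPKM in Control and 3.3 to 6.56 in DOX, a log2 change of -2.35 (adjusted p 6.05e-07), and it was also lower in Tb-DOX than in Tb (-1.21, adjusted p 0.00221). Reads of Ccl21a can be shared with near-identical copies of the gene, so its level is uncertain. Pdpn fell in both comparisons, by 0.98 and 1.23 (adjusted p 0.0178 and 0.0213), but other stromal cells also express it, and fibroblast markers summed to 265 to 320 FPKM in Control and 165 to 256 in DOX, with 4 of the 7 lower and 1 higher. Their part in the value of Pdpn was not tested.

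Genes that act on vessels from outside were counted in the same way, beside 36.2% of all genes called in DOX against Control and 4.72% in Tb-DOX against Tb. Of 11 hypoxia genes tested 4 rose and 2 fell with DOX alone, with Hif3a at 1.95 (adjusted p 0.000761) and Bnip3 at 1.47 (adjusted p 9.39e-05), although Egln3, another hypoxia-induced gene, was lower (-0.53, adjusted p 0.0213) and lost its call without DOX replicate 4 (adjusted p 0.0618). In tumor-bearing mice Egln3 (-1.04, adjusted p 0.00188) and Pdk1 were lower and none rose. Without Tb replicate 5 the counts with DOX alone were 6 higher and 2 lower. Of 6 angiogenesis inhibitor genes, Thbs2 rose (1.93, adjusted p 8.78e-06) and Serpinf1 (-1.96, adjusted p 6.17e-06) and Vash1 (-1.69, adjusted p 0.00012) fell, and without Tb replicate 5 Thbs1 (1.10, adjusted p 0.00339) and Adamts1 (1.11, adjusted p 0.00256) passed as higher too. Thbs2 and Serpinf1 moved in the same directions in Tb-DOX against Tb (1.01 and -1.09, adjusted p 0.0127 and 0.00677).

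Of the 4 leukocyte adhesion genes, which activated endothelium displays, 3 were higher in Tb than in Control by edgeR, beside 5.0% of all genes, the selectin genes Selp (5.45, adjusted p 0.00504) and Sele (4.33, adjusted p 0.0242) and Icam1 (1.86, adjusted p 0.048, and 0.0506 without DOX replicate 4). Selp had 0.07 to 0.24 FPKM in Control, 29.34 in Tb replicate 5 and 0.51 to 2.46 in the other 5 Tb libraries. Without Tb replicate 5 Selp alone of the 4 passed, Sele being at 1.87 (adjusted p 0.196) and Icam1 at 1.02 (adjusted p 0.215). In Tb-DOX against DOX, where 9.52% of all genes were higher, Vcam1 alone of the 4 passed, as higher (1.16, adjusted p 0.000319). Without Tb replicate 5, which enters the shared spread, Icam1 (1.09, adjusted p 0.0488), Sele (2.24, adjusted p 0.0186) and Selp (1.97, adjusted p 0.0172) passed as higher as well. Vcam1 was lower in DOX than in Control, from 2.11 to 2.99 FPKM to 0.76 to 1.51 (log2 change -0.96, adjusted p 0.000745). In the latter comparison Selp and Icam1 passed as higher without Tb replicate 5 (adjusted p 0.0211 and 0.0459). Platelets also hold Selp transcripts, and the part of blood cells in these values was not tested.

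**Figure D4:**
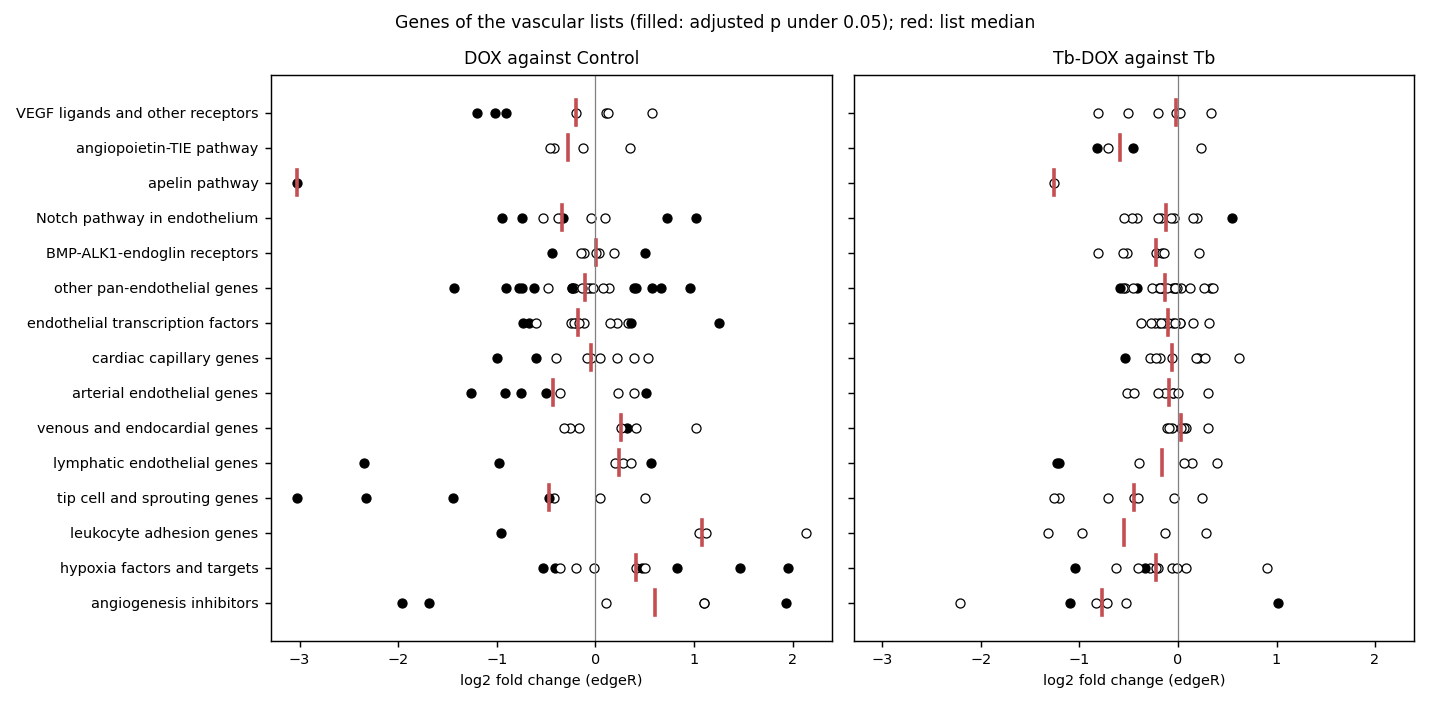
Log2 fold changes from edgeR (horizontal axis) of the tested genes of 15 vascular lists, filled where the adjusted p was under 0.05, with each list's median in red, for DOX against Control and Tb-DOX against Tb. Among tip cell and sprouting genes 4 of 7 are filled below 0 in DOX against Control and none is filled in Tb-DOX against Tb.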

How the data were processed

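The authors enriched mRNA with oligo(dT) beads, sequenced it on an Illumina platform and trimmed reads with Cutadapt, and the submitters' processing notes name HISAT2, HTSeq 0.6.1, DESeq2 1.34.0 and GRCm39. Strand use in counting is not given in the sources used here. The deposited table gives, for each gene, whole-number read counts in every library. The FPKM values that the authors deposited beside them equal the count per kb of exon scaled to the library total in 100% of values, within 0.005. GO and pathway annotation in the table was not used.

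Groups and replicate numbers came from the labels. All 4 groups entered the same edgeR fit (version 4.0.16, R 4.3.3), scaled by TMM (factors 0.881 to 1.14) and tested by quasi-likelihood. Genes whose FPKM averaged 0.5 or more across the 21 libraries, 13990 in number, were tested. A call is a Benjamini-Hochberg adjusted p under 0.05 with no minimum fold change, and adjusted p-values in the text are from this test unless another is named. Comparisons that share a group share its libraries. Two-sided exact permutation tests used log2(FPKM + 0.1), with 252 arrangements for 5 against 5 libraries and 462 for 6 against 5. FPKM is scaled by library totals and edgeR by TMM, so they can differ. The test was tried on simulated counts with known changes. Intervals are ± 1.96 SE. No libraries agreed within counting noise (chi-square per degree of freedom at least 5.79).

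The 10 genes and the lists were chosen with earlier results of these data known, so no p was adjusted over a list. Of each pathway list, the most abundant gene and the largest called change in DOX against Control and in Tb-DOX against Tb were named, and of each marker list the most abundant gene. Esm1, Cxcr4, Nid2, Vegfc, Nrp2, Angpt1, Angpt2, Efnb2, Foxo1, Ets1, Lmo2, Notch4, Acvrl1, Pdk1, Thbs1, Thbs2, Vash1, Pgf, Adm, Adgrf5, Hey1, Npr3, Prox1, Sele and Selp were added after their values were seen. Similarity to other genes was Pearson's r of log2 CPM, computed from the counts, after subtracting group means. Alternatives were other scalings, filters, tools (DESeq2 1.42.0, limma 3.58.1), thresholds and samples in the fit, a replicate block, each library left out, and, chosen after seeing the data, levels relative to 20 pan-endothelial genes. Promoter windows came from RefSeq on GRCm38.p6, and the motifs named in the text were searched on both strands.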

Additional observations from a re-analysis of the deposited data

Results flagged for a closer look

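Vegfa in DOX replicate 4 was 94.79 FPKM, while the other 4 DOX libraries lay between 40.86 and 54.83. The gap to the nearest library was 0.741 of the group's range, past Dixon's 95% limit for 5 samples. Chance flags about 1 in 20 groups, and 1 of the 40 groups checked was flagged. The same library had the highest T cell marker sum of all DOX libraries, 67.3 FPKM, and their relation was not tested.

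The effect of DOX on Tie1 differed between mice with and without a tumor by the interaction term, with a log2 difference of 0.47 ± 0.133 (SE) and an adjusted p of 0.032 by edgeR. The call was lost in 6 of the 21 fits that left out a library, with no filter on low values and with the replicate block. All 5 DOX libraries were below the Control mean, and all 5 Tb-DOX libraries were above the Tb mean. The Tb-DOX and Tb libraries overlapped, however, and their log2 change was 0.09 (adjusted p 0.621 by edgeR). Tb itself was lower than Control for Tie1, so the 4 group means were 16.6, 11.6, 13.5 and 14.4 FPKM for Control, DOX, Tb and Tb-DOX.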

How the results depend on the processing

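In DOX against Control the call of Aplnr held under every alternative that tested it, which a minimum mean FPKM of 5 did not, and that of Tie1 under all but a minimum fold change, while that of Flt1 was lost when libraries were scaled by totals (log2 change 0.25) and with limma on log2(FPKM + 0.1) or log2(FPKM + 1) (0.25 and 0.24). The numbers of the 10 genes called changed as follows. With a minimum absolute log2 fold change of 1 they were 1 for DOX against Control, 0 for the interaction, 0 for Tb against Control and 1 for Tb-DOX against DOX. With the replicate block they were 0 for the interaction, 0 for Tb against Control (Vwf 0.55, adjusted p 0.0508 by edgeR) and 1 for Tb-DOX against DOX, the other 2 counts staying at 4 and 0, and over all genes the block took the interaction from 1251 to 506 calls and Tb against Control from 879 to 469. The numbers mark no shared animal or batch in the labels: same-numbered libraries had r of -0.205 to 0.177 between their deviations from group means, and a library was closest to its own number in 7 of 60 cases. Without a filter on low values the interaction had 0. Tb against Control had 1 under library totals, both limma fits, no filter, a minimum mean FPKM of 5 and a fit of the 2 groups alone. Tb-DOX against DOX had 1 with limma on log2(FPKM + 1) and 0 with a minimum mean FPKM of 5, a filter that leaves Aplnr and Vwf untested. With each library left out the numbers ranged from 3 to 5 for DOX against Control, 0 to 1 for Tb-DOX against Tb, 0 to 2 for the interaction, 1 to 3 for Tb against Control and 1 to 3 for Tb-DOX against DOX. Over all genes, Tb-DOX against Tb went from 660 calls to 1074 with DESeq2, 420 with limma on log2(FPKM + 0.1), 351 in the 2 groups alone and 265 to 948 with a library left out, and the interaction from 1251 to 2005 with DESeq2 and 658 to 1722 with a library left out. A minimum mean FPKM of 5 left 5668 genes tested in place of 13990, so its counts are of a smaller total. It gave 2496 calls for DOX against Control, 481 for Tb-DOX against Tb and 551 for the interaction. Tb against Control had 334 and Tb-DOX against DOX 948. In the main fit these 5 counts were 5071, 660, 1251, 879 and 2442. The cause of these changes was not tested.

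Among uncalled values near 0 the sign turned. In Tb against Control, Emcn was 0.013 under library totals, 0.004 with both limma fits and 0.001 in the 2 groups alone, Flt1 0.002 and 0, and Tek -0.039 with the replicate block. In Tb-DOX against Tb, Vegfa was 0 under library totals, 0.014 with limma and 0.007 under a minimum mean FPKM of 5, and with the replicate block Tek was 0.038 and Vwf 0.009. In Tb-DOX against DOX, Pecam1 was 0.112 under library totals and 0.122 and 0.119 with limma. Relative to pan-endothelial genes, Cdh5 was -0.19 and Tek -0.20 in Tb against Control, Tek 0 and Vegfa 0.03 in Tb-DOX against Tb, and Emcn -0.14, Kdr -0.06 and Tie1 -0.05 in Tb-DOX against DOX. Leaving out libraries gave ranges across 0 for Cdh5 (-0.136 to 0.104), Emcn (-0.077 to 0.043), Flt1 (-0.096 to 0.02) and Tek (-0.027 to 0.085) in Tb against Control, for Kdr (-0.101 to 0.139), Tek (-0.073 to 0.04), Vegfa (-0.111 to 0.127) and Vwf (-0.203 to 0) in Tb-DOX against Tb, and for Emcn in Tb-DOX against DOX (-0.113 to 0.097) and the interaction (-0.091 to 0.114). The lowest Aplnr count was 11 reads, in DOX replicate 2, so counting noise weighs most on its level in DOX. Its spread between libraries was not the largest there, with an SD of 43.4% of the mean in DOX, 46.8% in Control and 72.4% in Tb.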
